A study of Mus musculus with 9 samples.

Results

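Histone genes were followed as a group: the 83 of 31053 annotated genes whose symbols start with Hist1h, Hist2h, Hist3h or Hist4h, or with H2af, H3f or H1f. The symbol rule split them into 67 replication-dependent genes (54 Hist1h, 10 Hist2h, 2 Hist3h and 1 Hist4h) and 16 replacement genes (9 H2af, 3 H3f and 4 H1f). Their unique molecular identifiers (UMIs, counts of captured RNA molecules) were read in single-cell RNA-seq of CD11b+ cells sorted from the brains of C57BL/6 mice. Each of 3 Ctrl libraries came from 1 naïve, untreated brain. Each of 3 D0 libraries pooled 2 brains after 14 days on a diet with 1200 mg/kg of PLX5622, an inhibitor of CSF1R, the receptor that microglia need to survive, and each D2 library pooled 2 brains after the same diet and then 2 days on control diet. Replicates 1 and 2 of D2 entered the comparisons, since the study left out replicate 3. All brains lost their cerebellum and their myelin before the sort, and pooled brains cannot be told apart, so p-values between groups measure the spread between libraries. Between classes of cells from the same libraries, p-values measure how far the class difference varied from library to library.

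Histones package DNA into nucleosomes: H2A, H2B, H3 and H4 form the core, and H1 binds the linker DNA. Replication-dependent histone genes lie in clusters, mostly lack introns and are transcribed while DNA is copied. Their mRNAs normally end in a short stem-loop instead of a poly(A) tail. Replacement histones such as H2A.Z and H3.3 are made from ordinary polyadenylated mRNAs throughout the cell cycle and are deposited outside replication. The libraries were made with a 3′ kit that primes on poly(A), so a replication-dependent mRNA that ends at its stem-loop would be captured poorly, and levels below describe the captured part of these mRNAs only.

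The motif GGNNCTTTTNAGNNCC, which spells the histone stem-loop, was found on the sense strand of annotated transcripts of 44 of the 67 replication-dependent genes. Of all 141767 annotated mouse transcripts, 124 (0.0875%) held it. Among replacement genes only H2afx, the H2A variant phosphorylated at DNA breaks, held it. The stretches below come from the GRCm38 annotation, 5′ to 3′, with the motif in capitals, and are shown because the distance from the motif to the transcript's end separates genes that end there from genes with a longer tail.
Hist1h2ap: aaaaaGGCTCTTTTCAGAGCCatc
Hist1h3b: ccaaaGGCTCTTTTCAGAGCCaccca
Hist1h3c: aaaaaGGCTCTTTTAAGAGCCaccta
Hist1h2ae: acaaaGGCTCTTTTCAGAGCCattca
Hist1h1c: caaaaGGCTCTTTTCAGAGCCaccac
Hist3h2a: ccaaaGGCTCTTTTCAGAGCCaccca
H2afx: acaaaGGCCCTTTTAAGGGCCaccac
The annotated transcript of Hist1h2ap (chr13:21833026-21833049 on the minus strand for the stretch shown) stopped 3 bases after the motif. Those of Hist1h3b (chr13:23752815-23752840, plus) and Hist1h3c (chr13:23745042-23745067, minus) stopped after 51 and 74 bases. Those of Hist1h2ae (chr13:23570663-23570688, minus), Hist1h1c (chr13:23739507-23739532, plus), Hist3h2a (chr11:58955167-58955192, plus) and H2afx (chr9:44335235-44335260, plus) ran on for 151, 840, 1643 and 822 bases. In all, 22 replication-dependent transcripts stopped within 100 bases of the motif and 22 ran on, and in the other 23 these letters were not found. A poly(A) signal (AATAAA or ATTAAA) lay in the last 50 bases of 17 of the 67 replication-dependent and 11 of the 16 replacement genes.

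The 150 bases before the annotated starts of 3 genes that results below turn on are given from RefSeq (GRCm38.p6), with 3 searched motifs in capitals on either strand. They were the CCAAT box, the TATA box spelled TATAAA, and the histone promoter motif spelled AAACACA, which overlaps a TATA box that runs on into CACA.
Hist1h1b: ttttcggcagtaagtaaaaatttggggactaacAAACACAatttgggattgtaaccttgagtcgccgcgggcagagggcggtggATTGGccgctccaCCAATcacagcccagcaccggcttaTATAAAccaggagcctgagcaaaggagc
Hist1h2ae: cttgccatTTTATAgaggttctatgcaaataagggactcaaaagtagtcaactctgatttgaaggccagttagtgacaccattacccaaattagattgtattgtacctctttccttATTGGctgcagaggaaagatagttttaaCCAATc
H2afz: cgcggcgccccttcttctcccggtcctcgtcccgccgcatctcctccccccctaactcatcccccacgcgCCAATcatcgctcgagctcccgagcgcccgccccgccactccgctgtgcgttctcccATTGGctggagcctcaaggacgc
These windows are chr13:21780626-21780775 (minus strand) for Hist1h1b, chr13:23571221-23571370 (minus) for Hist1h2ae and chr3:137864337-137864486 (plus) for H2afz. Over 250 upstream bases, CCAAT occurred in 50 of 61 replication-dependent genes with a RefSeq promoter (82.0%), in 8 of 13 replacement genes (61.5%) and in 37.5% of all 27025 promoters. TATAAA occurred in 29 of 61 (47.5%), 1 of 13 (7.69%) and 14.3%. AAACACA occurred in 9 of 61 (14.8%), 1 of 13 (7.69%) and 7.20%. These are matches of letters, and binding was not measured.

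Near copies limit what a UMI can be assigned to. Of the 67 replication-dependent genes, 54 lay on chromosome 13, 10 on chromosome 3 and 2 on chromosome 11, and 49 shared at least 1 stretch of 91 bases with another gene's transcript in their last 500 bases. More than 50% of these stretches were shared in 28 of them, among them Hist1h2ap (92.3%), Hist1h3b (72.0%) and Hist1h2ab (53.5%), and values of these genes may hold or lack reads of their copies. Hist1h1e shared 99.0% with Hist1h2be and Gm11398, whose annotated transcripts overlap it on the same strand. Hist1h1b, Hist1h1c, Hist1h1d, Hist1h2bc, Hist1h4d and Hist3h2a shared none. No replacement gene shared over 50%, but H3f3a and H2afz shared 11.9% and 20.4% with their pseudogenes and, for H3f3a, with H3f3c. H3f3aos is an antisense RNA beside H3f3a that the symbol rule includes, and it codes for no histone.

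The matrices held 36391 barcodes in 9 libraries, with 20257894 to 61230741 UMIs per library, and 142 barcode sequences occurred in 2 libraries each. Cells of 500 to 20000 UMIs were clustered without the histone genes and the 16 genes that set the cell classes, while other cell-cycle genes stayed in. Of the 19 clusters, 8 with 21611 cells of the 8 libraries were called microglia-like. The rule asked for at least 3 microglial markers at 100 CPM (UMIs of a gene per 1000000 UMIs of all genes) or more, and fewer than 3 raised markers of any other cell type. In these 8 clusters all 12 microglial markers were at that level. Another cluster of 1722 cells met this rule too but was left unnamed and out of the sums. Its cells were shallow (median 1395.5 UMIs), and none of its leading genes was a microglial marker. The leading genes of the 8 clusters were often not microglial markers: some were led by immune or early response genes (Tnf, Dusp2 and Il1a, or Egr1, Jun and Fosb), 1 by genes of division (Top2a, Mki67 and Birc5) and 1 by Igf1, Arg1 and mitochondrial genes. The summed level of the microglial markers ranged over Ctrl libraries from 41510 to 47705, over D0 from 32373 to 34745 and over D2 from 27788 to 28763. The libraries fell apart by UMIs per barcode: Ctrl-1, D0-1, D2-1 and D2-2 held 5261 to 7524, and Ctrl-2, Ctrl-3, D0-2, D0-3 and the unused D2-3 held 10703 to 19134. Ctrl-2, Ctrl-3 and D2-3 were processed with Cell Ranger 3.1.0 and the other 6 with 3.0.2, per the file headers.

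Each microglia-like cell was put in a class by 16 cell-cycle genes, none of them a histone gene. An S list held 8 genes of DNA replication such as Mcm5 and Rrm2, and an M list held 8 genes of late cycle and mitosis such as Top2a and Cenpf. A cell with UMIs of at least 2 genes of the S list alone was called S-only, of the M list alone M-only, and of both lists S-and-M, and the rest were neither, here also called non-dividing. The classes are ranges of a count and not cell types, and 451 to 1260 cells of each of the 8 libraries lay 1 gene from a limit. In D0 and D2, S-only cells held Mcm3 and Mcm5 at 171 and 90.0 CPM on average, near 144 and 94.4 CPM in S-and-M cells. The other S-list genes were lower in S-only cells, such as Rrm2 (3.77 against 164 CPM) and Clspn (26.8 against 130 CPM). All S-list genes were lower in neither than in S-only cells. In neither cells Mcm3 was at 29.5 CPM, Mcm5 at 2.62, Clspn at 1.55 and Rrm2 at 0.342 CPM. These genes set the classes themselves. Whether S-only cells were in S phase was not tested, and their values are not read as those of cells in S phase. S-and-M cells made up 4.75%, 7.87% and 15.03% of microglia-like cells in D0-1, D0-2 and D0-3 and 4.92% and 5.69% in D2-1 and D2-2. In Ctrl they numbered 3, 2 and 8, so that Ctrl values of this class are given without a test. The median UMI count of S-and-M cells was 10228 to 14545 in the D0 and D2 libraries, against 5279 to 9098 in neither cells. M-only cells had medians of 2726.5 to 13163, below those of S-and-M cells in each of these libraries, with 2726.5 against 13026 in D0-1.

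Of the 67 replication-dependent genes, 53 passed the low-count filter over all microglia-like cells, 11 had UMIs but fell under it, and Hist1h2aa, Hist1h2ba and Hist1h2bq had none. Of the 16 replacement genes 10 passed, H2afy2 fell under it, and H2afb1, H2afb2, H2afb3, H1foo and H1fnt, which are known from the germ line, had none. Over the 8 libraries the replication-dependent genes held 135785 UMIs and the replacement genes 584559.

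Replication-dependent histone RNA was concentrated in S-and-M cells. Its summed level there was 6260.2, 2976 and 1636 CPM in D0-1, D0-2 and D0-3 and 5977 and 6021 CPM in D2-1 and D2-2. In neither cells of the same libraries it was 506, 431 and 420.0 CPM and 504 and 629 CPM, so that every S-and-M value lay above every neither value. M-only cells lay between both classes in each library, at 2299.7, 927 and 781 CPM in D0 and 1842 and 1162 CPM in D2. S-only cells held 392, 381 and 246 CPM in D0 and 204 and 498 CPM in D2, within or below the range of neither cells. In the few S-and-M cells of Ctrl the sums were 239, 2088 and 1718 CPM.

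Replacement histone RNA rose with the same classes from a higher base. Its sum was 2788 to 3103 CPM in neither cells of the 5 D0 and D2 libraries, 2771 to 3748 in S-only, 5178 to 5776 in M-only and 5894 to 8504 in S-and-M cells. M-only and S-and-M values lay above all neither values. S-and-M cells held 40.3% to 53.8% of the replication-dependent UMIs of microglia-like cells in the 5 libraries. Their share of replacement UMIs was 17.1% to 30.2%, and of all UMIs 7.65% to 18.7%.

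**Figure D1:**
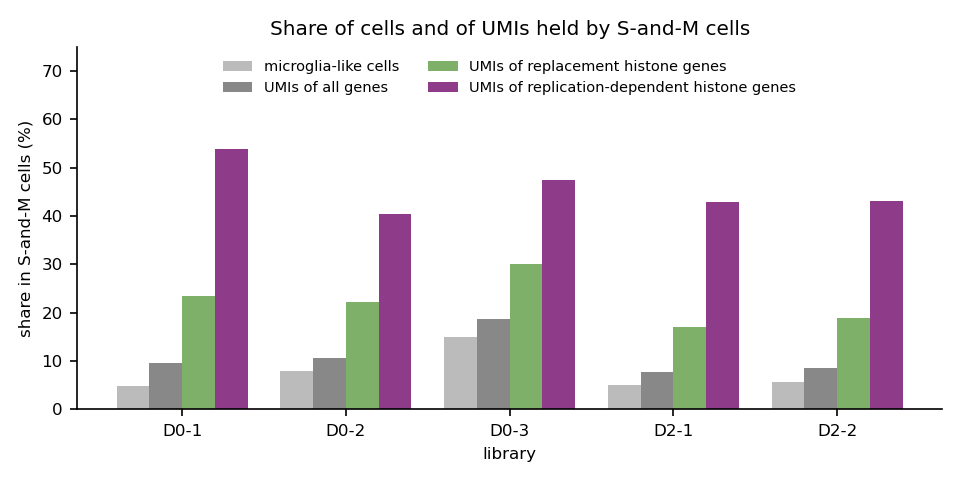
Share (%) of microglia-like cells and of their UMIs that S-and-M cells held in each used D0 and D2 library. In each library the share of replication-dependent histone UMIs (40.3% to 53.8%) was above those of replacement histone UMIs, all UMIs and cells.

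Other genes led the replication-dependent RNA in S-and-M cells than in neither cells. In neither cells of D0 and D2, Hist1h2bc made up 23.0% of it, Hist1h1c 21.3%, Hist1h1e 17.8% and Hist3h2a 8.17%, so that a core histone H2B, 2 linker histones and an H2A led. In neither cells of Ctrl the same 4 genes made up 30.4%, 22.0%, 9.78% and 8.66%. In S-and-M cells of D0 and D2, linker histone Hist1h1b held 19.6% on average, the H2A gene Hist1h2ae 14.8%, Hist1h1e 13.2% and the H2A gene Hist1h2ap 10.1%, and Hist1h2bc made up 2.76%. The order differed between libraries: Hist1h1b led in D0-1, D2-1 and D2-2, which had fewer UMIs per barcode, and Hist1h2ae led in D0-2 (610 CPM, against 396 CPM for Hist1h1b) and D0-3 (285 against 204 CPM). These are shares of captured molecules, with no correction for how well each transcript is captured.

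S-and-M and neither cells were then compared gene by gene within the 5 D0 and D2 libraries (edgeR's quasi-likelihood test with library as a block and Benjamini-Hochberg adjustment over all 9851 genes tested, a comparison added after the data had been seen). Of the 46 histone genes tested 42 were higher and 1 was lower, where 24.1% of all genes were higher and 24.8% lower. The median log2 fold was 3.79 over the 37 replication-dependent and 1.54 over the 9 replacement genes tested, against -0.05 over all genes. Over all dividing cells (the S-only, M-only and S-and-M classes summed) 52 of 57 histone genes were higher than in non-dividing cells and 1, Hist3h2a (-0.37), was lower, where 25.3% and 25.4% of all genes were. Both fits used classes that cell-cycle genes set, so a rise shows only that a gene moved with them.

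All 5 linker histone H1 genes tested rose. Hist1h1b (H1.5) was at 1895, 396 and 204 CPM in S-and-M cells of D0 and 1355 and 1167 CPM in those of D2. In neither cells it was at 4.71, 1.56 and 2.11 CPM in D0 and 2.59 and 4.34 CPM in D2. The groups did not overlap, and the log2 fold was 8.28 ± 0.49 (SE; adjusted p = 7.22e-09). The spread among the S-and-M values was large, with D0-2 and D0-3 far below the other 3 libraries. Hist1h1a (H1.1) rose by 6.72 ± 0.30 and Hist1h1d (H1.3) by 3.097 ± 0.26. Hist1h1c (H1.2) was already at 94.1 to 124 CPM in neither cells and reached 111 to 364 CPM in S-and-M cells, which is 1.06 ± 0.26 in log2 terms (adjusted p = 0.00371), with the higher value in S-and-M cells in each of the 5 libraries. Hist1h1e (H1.4) rose from 38.4 to 135 CPM to 153 to 1037 CPM, a log2 fold of 2.68 ± 0.23 (adjusted p = 8.28e-08).

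Genes for the core histones H2A and H3 had the largest family medians. Of 8 H2A genes tested 7 were higher, with a median of 5.27, and of 7 H3 genes all were, with a median of 5.38. Hist1h2ae stood at 667, 610 and 285 CPM in S-and-M cells of D0 and 733 and 787 CPM in those of D2, and at 6.66 to 9.92 CPM in neither cells (6.16 ± 0.32, adjusted p = 3.62e-10). Hist1h2ap reached 211 to 530 CPM from 5.70 to 8.57 CPM (5.73 ± 0.25) and Hist1h2ab 42.0 to 229 CPM from 0.56 to 2.11 CPM (6.82 ± 0.21). Hist2h2ac, outside the large cluster, reached 52.2 to 462 CPM from 3.19 to 13.5 CPM (4.82 ± 0.20). Hist1h3c was at 180, 66.8 and 32.1 CPM in S-and-M cells of D0 and 244 and 236 CPM in those of D2, against 0.28 to 0.99 CPM in neither cells (7.96 ± 0.32, adjusted p = 4.57e-13). Hist1h3b (8.35 ± 0.38) had 0, 1, 0, 0 and 1 UMIs in the neither cells of the 5 libraries, and Hist1h2af (7.48 ± 0.41) was as rare, so that the size of their folds rests on the model's prior count.

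Families H2B and H4 had lower medians than H2A and H3, a difference that was not tested. The 10 of 12 H2B genes that were higher included Hist1h2bn (6.33 ± 0.42) and Hist1h2bm (5.94 ± 0.36), and the median over the 12 was 3.79. Hist1h2bc, the H2B gene that led in neither cells, was at 79.0 to 135 CPM in S-and-M and 94.3 to 132 CPM in neither cells, and did not differ by the test (-0.25 ± 0.17, adjusted p = 0.253). All 5 H4 genes tested were higher with a median of 1.83, among them Hist1h4d (3.06 ± 0.20), from 10.3 to 29.1 CPM to 59.1 to 245 CPM, and Hist1h4i (1.83 ± 0.12). Hist3h2a was the 1 histone gene whose share of UMIs fell: it was at 20.5, 31.1 and 17.4 CPM in S-and-M cells of D0 and 32.5 and 31.4 CPM in those of D2, below its 38.7, 42.1, 36.9, 35.7 and 47.8 CPM in neither cells (-0.67 ± 0.15, adjusted p = 0.000531). CPM is a share of all UMIs, and S-and-M cells had higher median UMI counts than neither cells in each of the 5 libraries. A lower or equal share need not mean fewer or as many molecules per cell, which were not compared.

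**Figure D2:**
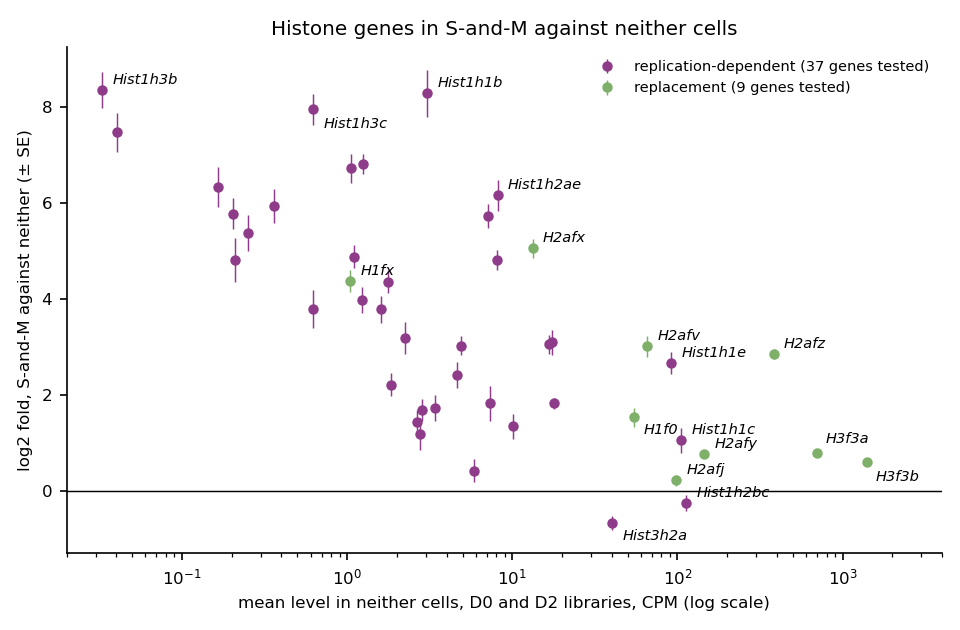
Log2 fold of each tested histone gene between S-and-M and neither cells (bars, SE) against its mean level in neither cells of the 5 D0 and D2 libraries (log axis). Genes at low level in neither cells, such as Hist1h3b and Hist1h1b, have folds above 8, and Hist1h2bc and Hist3h2a lie below 0; the level on the x axis is part of the fold on the y axis.

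Among replacement histones, H2afx rose most, from 10.8 to 17.4 CPM in neither cells to 266 to 597 CPM in S-and-M cells (5.06 ± 0.20, adjusted p = 4.56e-14). H2afz, which encodes H2A.Z, was at 3189, 2855 and 1997 CPM in S-and-M cells of D0 and 2760 and 3298 CPM in those of D2, against 370.4 to 403 CPM in neither cells (2.85 ± 0.11, adjusted p = 3.58e-17). H2afv, the second H2A.Z gene, rose by 3.02 ± 0.21, the linker genes H1fx and H1f0 by 4.38 ± 0.24 and 1.54 ± 0.19, and H2afy (macroH2A1) by 0.77 ± 0.08. The H3.3 genes H3f3a and H3f3b, with the most UMIs of the group at 656 to 754 CPM and 1290 to 1590 CPM in neither cells, rose by 0.80 ± 0.08 and 0.61 ± 0.08. H2afj was the only tested replacement gene not called, at 102 to 133 CPM in S-and-M and 85.4 to 104 CPM in neither cells (0.23 ± 0.12, adjusted p = 0.113). Cenpa, the H3 variant of centromeres, lies outside the symbol rule, and rose by 4.54 ± 0.18.

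Most histone genes were also higher in M-only cells. Against neither cells 42 of the 46 histone genes were higher and none was lower, where 18% of all genes were higher. The median log2 fold was 1.82 over replication-dependent and 1.42 over replacement genes, with Hist1h3b at 5.92 ± 0.56, Hist1h1b at 5.48 ± 0.48, Hist1h3c at 5.37 ± 0.39 and H1fx at 4.19 ± 0.24. Between S-and-M and M-only cells 32 of 46 histone genes differed upwards and 3 downwards, where 14.4% and 8.83% of all genes did. The replication-dependent median of that difference was 2.01, with Hist1h1a at 3.06 ± 0.28, Hist1h2ap at 3.02 ± 0.23 and Hist1h2ae at 2.86 ± 0.28. The replacement median was 0.34, led by H2afx at 1.32 ± 0.17. The 3 lower genes were Hist1h2bc (-1.18 ± 0.18, adjusted p = 8.25e-05), Hist3h2a (-0.72 ± 0.16) and H2afj (-0.53 ± 0.12). All 7 replacement genes called in this comparison, H2afx and H2afj among them, lost their call when cells were thinned to 2000 UMIs. H2afx also lost it in the libraries with more UMIs per barcode, and its adjusted p reached 0.755 over these 2 alternatives. Thinning took the calls of the replication-dependent genes Hist1h2ab and Hist1h3c as well (adjusted p = 0.183 and 0.0974). It left fewer histone genes called in this comparison as a whole.

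Hist1h2bc was highest in M-only cells. It was at 129, 245 and 238 CPM in M-only cells of D0 and 215 and 211 CPM in those of D2, above the neither and S-and-M values of the same library in each of the 5 (0.93 ± 0.17 against neither cells, adjusted p = 0.000288). In S-only cells it was at 46.6, 94.2 and 41.6 CPM in D0 and 18.2 and 28.4 CPM in D2, below both.

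Few histone genes differed in S-only cells. Of 46 histone genes tested against neither cells, 2 were higher and 2 were lower, where 6.99% and 3.34% of all genes were. The higher genes were H2afz, at 477 to 690.2 CPM (0.58 ± 0.11, adjusted p = 0.001), and H2afy (0.29 ± 0.09, adjusted p = 0.0458). The call of H2afy was lost in 9 alternatives, with an adjusted p of up to 0.462. The lower genes were Hist1h2bc (-1.30 ± 0.22, adjusted p = 0.00103) and Hist3h2a (-1.01 ± 0.19, adjusted p = 0.00111). Against M-only cells 29 of 46 were lower and none was higher, where 6.9% of all genes were lower, led by Hist1h2bm (-6.53 ± 1.88), Hist1h3c (-4.74 ± 0.81) and Hist1h1b (-4.24 ± 0.70). S-only cells were few: 28, 83 and 307 in D0 and 84 and 16 in D2.

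For Hist1h1b and H2afx, but not Hist1h2bc, shares of cells with a UMI also put S-and-M cells first at an equal depth. After thinning each cell to 2000 UMIs and setting the classes again, Hist1h1b was seen in 63.5% of 255 S-and-M cells (95% Wilson interval 57.5% to 69.2%, 78.0% without thinning), 33.2% of 1120 M-only cells, 4.64% of 151 S-only cells and 0.531% of 10737 neither cells of D0 and D2. It was seen in 1.25% of 558 endothelial-like cells of the same libraries (7 cells, interval 0.609% to 2.57%). These should not transcribe it without dividing, but the set was not limited to non-dividing cells. Before thinning it held 4 M-only cells over the 8 libraries. The share in neither cells was no higher than in this set, and whether it is background was not tested. H2afx was seen in 56.1%, 46.4%, 4.64% and 2.89% of the same classes, and in 5.20% of endothelial-like cells. Such shares pool cells over libraries, and the edgeR fit on thinned cells did not call H2afx between S-and-M and M-only cells. Hist1h2bc was seen in 7.06% of S-and-M, 22.9% of M-only, 6.62% of S-only and 15.4% of neither cells, and in 21.9% of endothelial-like cells. Intervals cover counting error only, and the median UMI counts before thinning were 11858 in S-and-M, 7110.0 in neither and 4340 in endothelial-like cells. Before thinning, D0 held 702 and D2 225 S-and-M cells, against 255 in both after it. The other thinned classes may therefore hold cells that were S-and-M before.

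Genes of the histone supply chain moved in part with the same classes. Of 12 tested genes for histone mRNA synthesis and processing, 6 were higher in S-and-M than in neither cells, among them Slbp, which binds the stem-loop (1.81), and Eri1, an exonuclease that trims it (1.70), and 1, Lsm10 (-0.65), was lower, where 24.1% of all genes were higher and 24.8% lower. Of 21 genes for histone chaperones, 16 were higher and 1, Cabin1 (-0.40), was lower; the largest rises were those of Asf1b (6.05), Chaf1a (5.65), Chaf1b (3.63) and Hjurp (3.27). In S-only cells 9 of the 21 chaperone genes were higher than in neither cells, led by Chaf1a (4.02) and Chaf1b (3.00), where 6.99% of all genes were.

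Across groups, all microglia-like cells were compared next. The replication-dependent sum was 609.8, 546 and 562 CPM in Ctrl, 1107, 786 and 647 CPM in D0 and 1065 and 1197 CPM in D2, so that every D0 and D2 library lay above Ctrl. The replacement sum was 2647, 2730.2 and 2802 CPM in Ctrl, 3446, 4092 and 3660.5 CPM in D0 and 3550 and 3770.5 CPM in D2, again without overlap. Fewer dividing cells and less RNA per cell cannot be told apart in such sums, and dividing cells of all 3 classes made up 2.35% to 3.21% of microglia-like cells in Ctrl and 9.29% to 41.0% in D0 and D2. Most of those in Ctrl were S-only: this class made up 1.99% to 2.84%, M-only cells 0.123% to 0.267% and S-and-M cells 0.0891% to 0.247%. In D0-3, which had the highest dividing share, S-only cells made up 17.3%.

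Against Ctrl, 32 of 63 histone genes tested were higher in D0 and none was lower, where 12.5% of all 12388 genes were higher. In D2 35 of 63 were higher and none lower, where 10.6% of all genes were higher. The 2 comparisons share their Ctrl libraries. The median log2 fold was 1.04 in D0 and 1.33 in D2 over 53 replication-dependent genes, and 0.97 and 1.11 over 10 replacement genes, against -0.05 and -0.03 over all genes. By family, 3 of 6 H1, 9 of 14 H2A, 7 of 13 H2B, 6 of 11 H3 and 0 of 9 H4 replication-dependent genes were higher in D0, and 4, 9, 8, 6 and 2 in D2.

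Hist1h1b was at 0.49, 0.26 and 0.32 CPM in Ctrl, which are 13, 5 and 8 UMIs, at 199.8, 50.5 and 41.6 CPM in D0 and at 136 and 120.2 CPM in D2. Its log2 folds were 8.20 ± 0.79 (adjusted p = 0.000206) and 8.53 ± 0.81 (adjusted p = 0.00022). Hist1h3c, with 3, 4 and 3 UMIs in Ctrl, stood at 20.1, 8.60 and 6.73 CPM in D0 and 24.7 and 24.8 CPM in D2 (6.50 ± 0.53 and 7.49 ± 0.54). Both genes were nearly absent from Ctrl, and their values in D0 and D2 did not overlap with it. The next largest folds were those of Hist1h3b (5.94 ± 0.59), Hist1h2ag (4.30 ± 0.74) and Hist1h2af (4.05 ± 0.44) in D0 and of Hist1h3b (6.19 ± 0.63), Hist1h2an (5.16 ± 0.66) and Hist1h2ab (4.91 ± 0.54) in D2, all at under 30 CPM.

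Among more abundant genes, Hist1h2ae was at 6.14, 5.23 and 7.49 CPM in Ctrl, 74.97, 81.0 and 62.7 CPM in D0 and 75.9 and 86.8 CPM in D2 (3.74 ± 0.18 and 3.80 ± 0.19). It separated D0 and D2 from Ctrl with little spread, while D0 and D2 overlapped. Hist1h2ap rose by 2.68 ± 0.32 and 1.93 ± 0.34, Hist1h1d by 1.04 ± 0.23 and 1.33 ± 0.25, and Hist2h2ac by 2.15 ± 0.64 (adjusted p = 0.0462) and 3.21 ± 0.69 (adjusted p = 0.0139). The D0 and D2 calls of Hist1h1d were each lost in 2 alternatives, the Cell Ranger version as a term among them (adjusted p of up to 0.139 and 0.0813). The D0 call of Hist2h2ac was lost in 13 alternatives, with an adjusted p of up to 0.266, and its D2 call in 5, with up to 0.102. Its D0 values lay above Ctrl within the libraries with fewer UMIs per barcode (40.1 against 11.9 CPM) and within those with more (13.3 and 13.4 against 2.54 and 2.70 CPM). Hist1h4d rose only in D2 by the test (0.98 ± 0.18), and in D0 its fold was 0.07 ± 0.16; the difference between D2 and D0 was not called (adjusted p = 0.701). The genes that led in neither cells were not called: Hist1h1c at 0.04 ± 0.14 and 0.28 ± 0.16, Hist1h2bc at -0.36 ± 0.22 and -0.37 ± 0.25, Hist3h2a at -0.26 ± 0.16 and -0.18 ± 0.18, and Hist1h1e at 1.25 ± 0.68 and 1.98 ± 0.75. Hist1h4i was not called either (0.33 ± 0.27 and 0.44 ± 0.31). Though not called, Hist1h1e was above Ctrl within each set of libraries split by UMIs per barcode. With fewer it was at 124.6 CPM in Ctrl-1, 229.6 CPM in D0 and 208 and 210 CPM in D2. With more it was at 24.0 and 26.4 CPM in Ctrl and 63.3 and 65.0 CPM in D0.

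**Figure D3:**
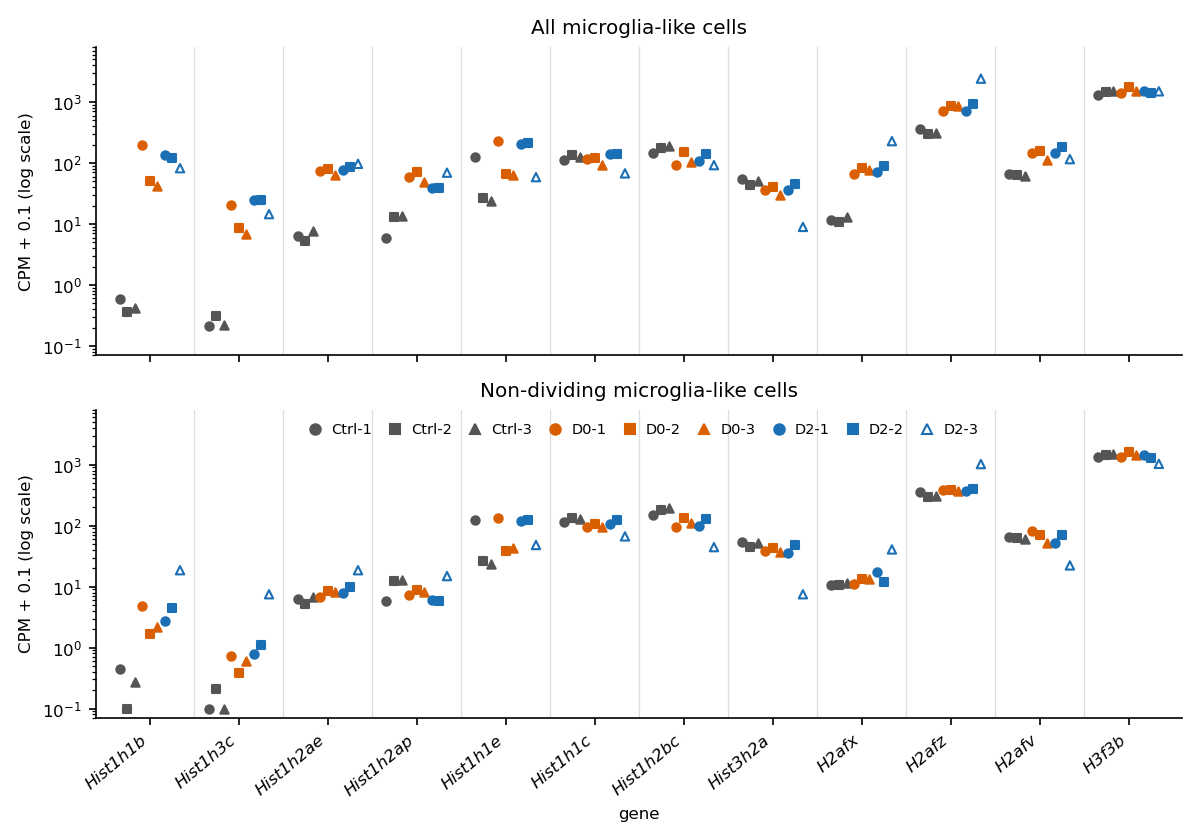
Level (CPM + 0.1, log axis) of 12 histone genes in each library, over all microglia-like cells (top) and over non-dividing ones (bottom). At the top Hist1h1b is at 0.26 to 0.49 CPM in Ctrl and 41.6 to 199.8 CPM in D0 and D2, whereas Hist1h1c, Hist1h2bc and H3f3b differ far less between groups. In the used D2 libraries Hist1h2bc (110 and 138 CPM) lies below Ctrl (147 to 189 CPM). Hist1h1c there (138 and 142 CPM) lies above Ctrl (114 to 134 CPM). D2-3 (open) was not used in the tests.

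Of the replacement genes, H2afz was at 365, 298 and 313 CPM in Ctrl, 705, 863 and 849 CPM in D0 and 724 and 924 CPM in D2 (1.53 ± 0.15, adjusted p = 9.93e-05, and 1.46 ± 0.16, adjusted p = 0.000239). H2afx stood at 11.4, 10.6 and 12.8 CPM in Ctrl, at 65.6, 83.1 and 75.8 CPM in D0 and at 71.6 and 90.4 CPM in D2 (2.91 ± 0.17 and 2.91 ± 0.18). H1fx (3.79 ± 0.56 and 4.03 ± 0.59), H2afv (1.32 ± 0.16 and 1.46 ± 0.17), H1f0 (1.03 ± 0.18 and 1.30 ± 0.20) and H2afj (0.91 ± 0.14 and 0.91 ± 0.15) rose in both. H3f3a rose in D0 (0.59 ± 0.11, adjusted p = 0.00551) and missed the threshold in D2 (0.39 ± 0.12, adjusted p = 0.0513), with no call between D2 and D0. H3f3b (0.35 ± 0.13 and 0.14 ± 0.15), H2afy (0.14 ± 0.12 and 0.02 ± 0.13) and the antisense H3f3aos (-0.16 ± 0.48 and 0.73 ± 0.53) were not called. H2afy2, under the filter, was at 0.23 to 0.61 CPM in the 8 libraries. Cenpa rose by 3.99 ± 0.28 and 4.43 ± 0.29. Of the chaperone list 8 of 21 genes rose in D0 and 6 in D2, among them Chaf1a (3.95 and 2.96) and Asf1b (3.40 and 3.05), and of the mRNA list 0 of 13 and 1, Zfp473 (2.53), where 12.5% and 10.6% of all genes rose, so the mRNA list was not above the share of all genes.

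Between D2 and D0, no histone gene was called (0 of 63), where 0% of all genes were called. At an unadjusted p under 0.05, 834 of all 12388 genes and 11 of the 63 histone genes differed in edgeR, a larger share of the histone genes. DESeq2 called 1 histone gene, Hist1h4d, a count given without its share over all genes. The median log2 difference was 0.35 over replication-dependent and 0.00 over replacement genes. In dividing cells alone 0 of 57 histone genes were called, where again 0% of all genes were. Of these 57 genes, 4 had an unadjusted p under 0.05, as had 976 of all 10492 genes, and DESeq2 called 0 histone genes. The largest D0 and D2 values came from the same kind of library: D0-1 (1107 CPM) lay beside D2-1 and D2-2 (1065 and 1197 CPM), and these 3 were the D0 and D2 libraries with fewer UMIs per barcode.

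In non-dividing cells the replication-dependent sum was not higher after treatment. It was 611, 547 and 565 CPM in Ctrl, 506, 431 and 420.0 CPM in D0, all below Ctrl, and 504 and 629 CPM in D2, on either side of Ctrl. H4 genes summed to 59.2, 68.9 and 73.2 CPM in Ctrl, 39.2, 37.1 and 43.9 CPM in D0 and 53.5 and 73.7 CPM in D2. H2B genes summed to 183, 206 and 219.7 CPM, 121, 154 and 134 CPM, and 125 and 168 CPM. Both family sums were lower in D0 than in any Ctrl library. Most of the H2B sum was Hist1h2bc, at 148 to 192 CPM in Ctrl and 94.3 to 132 CPM in D0. Over the 10 H2B genes tested in D0 the median log2 fold was -0.01, and 1 was called higher and 0 lower, where 7.02% and 2.45% of all genes were. Over the 7 H4 genes tested the median was -0.50. The replacement sum was 2635 to 2786 CPM in Ctrl, 2810 to 3103 CPM in D0 and 2839 and 2788 CPM in D2.

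Of 48 histone genes tested in non-dividing cells, 7 were higher and 1 was lower in D0, where 7.02% of all genes were higher and 2.45% lower, and 6 were higher in D2, where 6.57% were. Hist1h4d was the lower gene, at 25.6, 22.2 and 25.1 CPM in Ctrl and 12.9, 10.3 and 12.8 CPM in D0 (-0.79 ± 0.18, adjusted p = 0.0221). H2afj was higher in D0 and D2, at 60.8, 67.01 and 67.04 CPM in Ctrl, 85.4, 101 and 98.2 CPM in D0 and 104 and 102 CPM in D2 (0.79 ± 0.13 and 0.78 ± 0.14). Hist3h2ba (1.37 ± 0.26 and 1.68 ± 0.29) and H1f0 (0.59 ± 0.16, adjusted p = 0.0482, and 0.85 ± 0.18) were higher in both. H2afz (0.50 ± 0.11, adjusted p = 0.016) and H3f3a (0.44 ± 0.11, adjusted p = 0.032) were higher in D0, and Hist1h3e (1.43 ± 0.39, adjusted p = 0.0441) in D2. The D0 call of H1f0 was lost in 14 alternatives, with an adjusted p of up to 0.225. Those of H3f3a, H2afz and Hist1h4d were lost in 9, 5 and 5 alternatives (adjusted p of up to 0.186, 0.456 and 0.121). For each of these genes except H1f0, the Cell Ranger version as a term was among them. Leaving out Ctrl-3 or D0-2 took the D0 count from 8 to 2, Ctrl-2 to 4 and D0-3 to 5, and leaving out Ctrl-1 or D2-2 took the D2 count from 6 to 11 or 3.

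The largest folds in non-dividing cells were again those of Hist1h1b (4.07 ± 0.65 in D0, adjusted p = 0.00446, and 4.25 ± 0.70 in D2) and Hist1h3c (3.84 ± 0.87 and 4.58 ± 0.90), at very low levels. Hist1h1b was at 0.35, 0 and 0.17 CPM in Ctrl, 4.71, 1.56 and 2.11 CPM in D0 and 2.59 and 4.34 CPM in D2. Endothelial-like cells of the same libraries, of which none was S-and-M and 4 were M-only, held it at 0 CPM in all 3 Ctrl libraries, 6.30, 3.13 and 0 CPM in D0 and 6.06 and 1.64 CPM in D2. In D0 and D2 the level in non-dividing microglia-like cells lay within this range. Expression in these cells is therefore not claimed, and the source of the UMIs was not tested. When the Cell Ranger version entered the fit, the adjusted p of Hist1h1b was 0.063 in D0 and 0.0655 in D2. The D0 call of Hist1h3c was lost in 6 alternatives, that fit among them, with an adjusted p of up to 0.0858. Marker sums of other cells moved with the groups in non-dividing cells as well. The sum of 8 monocyte markers was 7.05 to 9.47 CPM in Ctrl and 14.8 to 43.4 CPM in D0 and D2, and that of 8 dendritic cell markers 79.8 to 90.8 and 121 to 131 CPM. Sums were lower in D0 and D2 for 12 microglial (41522 to 47711 in Ctrl, 28361 to 37191 CPM), 7 astroglial (167 to 184, 93.7 to 123 CPM), 8 endothelial (35.6 to 44.6, 18.1 to 34.0 CPM), 6 oligodendroglial (48.4 to 55.2, 36.0 to 43.3 CPM) and 8 border-associated macrophage markers (19.4 to 31.5, 6.33 to 18.6 CPM). The part of these shifts in the counts was not tested.

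How transcripts are annotated to end was set beside these levels. In S-and-M cells of the 5 D0 and D2 libraries, the 22 genes whose transcripts stop within 100 bases of the stem-loop summed to 1129 ± 467 CPM (SD, n = 5), the 22 that run on to 2117 ± 926 CPM, and the 23 without the motif to 1328 ± 790 CPM. In neither cells the sums were 33.1 ± 6.23, 341 ± 73.7 and 124 ± 17.7 CPM. Neither cells thus held mostly RNA of genes annotated with a longer tail, among them Hist1h1c, Hist1h1e and Hist3h2a. Single genes made up most of the mean sum of the set without the motif. They were Hist1h1b in S-and-M cells (204 to 1895 CPM) and Hist1h2bc in neither cells (94.3 to 132 CPM). The 11 tested genes that stop at the stem-loop were all higher in S-and-M than in neither cells, with a median log2 fold of 4.89 (2.22 to 8.35). Of the 17 tested genes that run on, 15 were higher, with a median of 1.83 (-0.67 to 6.16). Of the 9 tested genes without the motif, 8 were higher, with the highest median of the sets, 5.375 (-0.248 to 8.285). The annotated transcript of Hist2h2bb, a gene without the motif, is 381 bases long, and a motif past its end would not be found. The annotation may not give the ends these cells use, and the levels share the same cells, so these sets are described and not tested.

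The libraries with fewer UMIs per barcode carried more RNA of some linker and H2A genes. In neither cells Hist1h1e was at 124 CPM in Ctrl-1, 135 CPM in D0-1 and 118 and 126 CPM in D2-1 and D2-2, and at 26.3 and 23.8 CPM in Ctrl-2 and Ctrl-3 and 38.4 and 43.0 CPM in D0-2 and D0-3. Hist2h2ac was at 8.67 to 13.5 CPM in the first set and 2.51 to 3.42 CPM in the second. In S-and-M cells Hist1h1b was at 1167 to 1895 CPM in the first set and 204 to 396 CPM in the second. Hist1h2ae in S-and-M cells was at 667 to 787 CPM against 285 and 610 CPM. Hist1h2ap (349 to 521 CPM against 211 and 530 CPM) and H2afz (2760 to 3298 CPM against 1997 and 2855 CPM) overlapped between the sets.

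**Figure D4:**
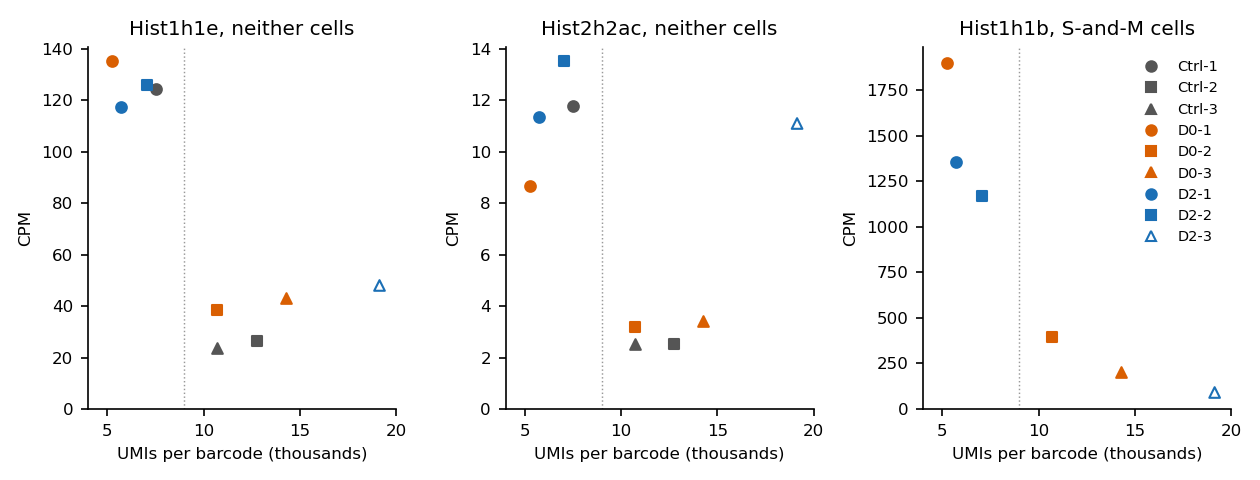
Level (CPM) of Hist1h1e and Hist2h2ac in neither cells and of Hist1h1b in S-and-M cells, against the UMIs per barcode of each library, in units of 1000; the dotted line is the limit of 9000 that splits the libraries. Hist1h1e is at 118 to 135 CPM left of the line and 23.8 to 48.1 CPM right of it, whatever the group; Ctrl is not drawn for S-and-M cells.

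The group differences were therefore also read within each set. In the libraries with fewer UMIs per barcode the replication-dependent sum over all microglia-like cells was 609.8 CPM in Ctrl, 1107 CPM in D0 and 1065 and 1197 CPM in D2. In those with more it was 546 and 562 CPM in Ctrl and 786 and 647 CPM in D0. D0 was above Ctrl within both sets, and no D2 library that was used had more UMIs per barcode. With UMIs per barcode as a term, the counts of histone genes called were 39 in D0 and 36 in D2, in place of 32 and 35. The share of all genes called in that fit is not set beside them, so the change is not read as particular to histone genes. The replication-dependent sum of S-and-M cells exceeded that of neither cells in each D0 and D2 library of both sets. Whether depth, library preparation or the mice set these differences cannot be told apart.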

How the data were processed

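CD11b+ cells from mouse brain were profiled with a 10x 3′ v3 kit, which primes on poly(A) tails. The authors deposited raw UMI counts per gene and barcode, which they had made with Cell Ranger on mm10 and filtered to barcodes called as cells. Per the file headers, version 3.0.2 made 6 matrices and 3.1.0 made 3, and the submitters' processing notes name 3.1.0.

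Here, barcodes were kept with a UMI total from 500 to 20000, a mitochondrial share of no more than 10% and 200 or more genes, then clustered (scanpy 1.11.5, leidenalg 0.10.2, Python 3.11.15, 3000 genes without histone and class genes, 10 components, resolution 0.6, 19 clusters), and clusters were named from fixed markers. Barcodes over 20000 UMIs were removed as possible doublets and no doublet caller was run. D2 replicate 3, which the study left out, entered no main comparison. Its cells, and barcodes over 20000 UMIs, were placed in the clusters by their 30 nearest neighbours. UMIs were summed per library and class and tested with edgeR 4.0.16 (R 4.3.3; TMM, filterByExpr, quasi-likelihood, Benjamini-Hochberg over all genes, calls at an adjusted p under 0.05), with library as a block between classes. Replicate numbers were checked for pairing by correlating deviations from group means. Same-numbered D0 and Ctrl libraries correlated at 0.401, 0.216 and 0.171 over all and 0.425, 0.231 and 0.158 over non-dividing cells, each over the 0.1 taken as pairing, which comes from the data and not from the labels. Ctrl-3 correlated more with D0-2 (0.287 over all cells). Ctrl-1 and D0-1 were also the only libraries of their groups with fewer UMIs per barcode, so pairing and depth cannot be told apart here. D2 shares 2 pairs with either group (0.0463 and 0.0881 with Ctrl, -0.135 and 0.265 with D0), too few to call paired. Contrasts with S-and-M or neither cells, and the split at 9000 UMIs per barcode, were added after the data had been seen. DESeq2 1.42.0, other scalings, filters, class limits, thinning and left-out libraries were the alternatives. The SE of an edgeR fold is the size of the fold divided by the square root of the test's F statistic. The fits were tested on simulated data. Named genes were every replacement gene over the filter, the 12 replication-dependent genes with the highest level in dividing cells, up to 5 called genes per direction and comparison, up to 4 called genes per pathway list, and Cenpa. Genes and families named besides, such as Hist1h2bc in class comparisons where it was not called, were chosen after their values were seen. The members and lists were chosen with earlier results of these data known. Transcript ends were read from GENCODE and promoters from RefSeq, 61 of 67 and 13 of 16 genes being found there.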

Additional observations from a re-analysis of the deposited data

Results flagged for a closer look

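Replication-dependent histone RNA was also present in cells outside the comparisons, above the level in Ctrl. In D2-3, the library that was not used, its sum over microglia-like cells was 746 CPM, against at most 609.8 CPM in a Ctrl library, and S-and-M cells were 72.4% of its microglia-like cells. Within its S-and-M cells the sum was 792 CPM, below the 1636 to 6260.2 CPM of the D0 and D2 libraries used, and within its M-only cells 782 CPM. Cells of D2-3 were not clustered but placed by their nearest neighbours among the clustered cells, and 40.3% of its kept cells fell in microglia-like clusters. Their summed microglial markers were at 12617 CPM, where the lowest library used had 27788 CPM, so the name microglia-like is less sure for them.

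Barcodes over 20000 UMIs were removed before the comparisons. Those of them that were placed in microglia-like clusters held replication-dependent histone RNA at 4166 CPM in D0-1, 890.03 CPM in D0-2, 747 CPM in D0-3, 2954 CPM in D2-2 and 807 CPM in D2-3, where the highest Ctrl library had 548 CPM in such barcodes. D2-1, at 507 CPM, lay below it. These barcodes numbered 48, 482 and 780 in D0-1, D0-2 and D0-3, of which 72.9%, 31.5% and 47.3% met the S-and-M rule. In D2-1, D2-2 and D2-3 they numbered 56, 108 and 943, of which 12.5%, 48.1% and 94.4% met it.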

How the results depend on the processing

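Of 217 counts of called histone genes under alternatives, 195 stayed within 1.5 times the reported count. The counts in this section are given without the share of all genes called in the same fit, so a changed count is not read as particular to histone genes. No named gene turned its direction with a call. Thinning each cell to 2000 UMIs left fewer genes to test and gave 19 (of 44 tested) for D0 and 21 for D2 against Ctrl in all cells, 31 (of 34) for dividing cells, 17 for S-only against M-only, 9 for S-and-M against M-only, 20 for S-and-M and 21 for M-only against neither, and 1 for D2 against D0 in dividing cells. DESeq2 called 1 between D2 and D0 over all cells, and without a filter on low counts 4 were called in dividing cells. With D2-3 included, D0 against Ctrl gave 21 over all and 4 over non-dividing cells. That last count of 8 was 2 once the Cell Ranger version entered the fit and 5 in cells without a UMI of the 16 class genes. S-only against neither gave 2 in the libraries with fewer UMIs per barcode.

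Leaving out 1 library gave 2 to 8 for D0 and 3 to 11 for D2 against Ctrl in non-dividing cells, and 0 to 5 for D2 against D0 in dividing cells (5 without D0-1). The range was 29 to 33 for D0 and 26 to 36 for D2 over all cells, 51 to 54 for dividing cells, 22 to 28 for S-only against M-only, 28 to 38 for S-and-M against M-only and 41 to 47 against neither. The causes were not tested.

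With the replicate number as a block, the counts were 32, 37 and 0 over all cells (D0 and D2 against Ctrl, D2 against D0), 9 and 6 in non-dividing and 0 in dividing cells. Among named genes this block added D2 calls of H3f3a, Hist1h1e and Hist1h4i over all cells and changed no other call. With no library block, dividing cells gave 49, S-only against M-only 23.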
